A study of Mus musculus with 10 samples.

Results

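Collagen and laminin receptors hold cells to the matrix around them, and 10 of their genes, given as a list, are described here. All 10 were found by symbol among the 49568 genes of the table. They were the discoidin receptors Ddr1 and Ddr2, the collagen-binding alpha chains Itga1, Itga2 and Itga11, the laminin-binding alpha chains Itga3, Itga6 and Itga7, the shared chain Itgb1, and Itgb4, the laminin receptor chain of hemidesmosomes. Integrins are pairs of an alpha and a beta chain, in which the alpha chain largely sets the ligand and the beta chain links it to the actin or keratin cytoskeleton. Discoidin domain receptors are tyrosine kinases that collagen switches on. In tissue, Ddr1 is mainly a gene of epithelia and Ddr2 of connective tissue cells.

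The study sequenced poly(A) RNA from mouse pancreatic cancer cells, in 5 lines of the genotype KPCAf/f (A1693, A1809, A1925, A2441 and A3992) and 5 of the genotype KPC (A1081, A1620, A1625, A2031 and A2032), with 1 library per line. By convention, KPC denotes a mouse model of pancreatic cancer whose driver alleles are switched on by Cre. The labels spell out neither genotype, nor the Cre driver, nor the age of the mice. The series title names Arid1a, a subunit of the SWI/SNF chromatin remodeller, and the added A was taken as that gene with both alleles floxed. All lines grew in DMEM with serum, with no treatment named, and the labels do not say whether each line came from its own mouse, so p-values measure the spread between these lines. A normalized count is a gene's read count divided by a size factor for its library. Means are given ± SD over the 5 lines of a genotype. A positive log2 fold change means a higher level in KPCAf/f. It was computed from log2 of the normalized count + 1, so that changes of low genes are understated. The threshold was an adjusted p of 0.05.

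Reads assigned to genes ranged from 15124888 to 20419830 per library. Normalized counts of Arid1a lay between 1253 and 1785 in KPCAf/f and between 819.9 and 3109 in KPC (limma adjusted p = 0.563). The lowest KPC value was that of A1620, and the other 4 KPC lines, at 1915 or more, lay above every KPCAf/f line. A count over the whole gene does not check whether the floxed part was lost. A pair of lines stood apart. Line A1693 (KPCAf/f) gave 10.8 normalized counts of Cdh1 (E-cadherin) and 2.70 of the pancreatic factor Pdx1, where every other line had at least 3143 and 594. It had 2466 of the keratin gene Krt8, also the lowest value of all lines, but the most Sox9 (945). In KPC line A1620, long transcripts were low, with a slope of -0.65 in log2 level for each doubling of length. The slopes were 0.10 to 0.15 over KPCAf/f lines, against -0.02 to 0.04 over the KPC lines besides A1620. The genotypes also differed in Y-linked reads, with 0 to 3 over 4 Y-linked genes in each KPCAf/f line and 1148 to 3415 in each KPC line. Xist, expressed from the inactive X chromosome, had 3.60 normalized counts in A1693 and 5278 to 18451 elsewhere in KPCAf/f, against 1.96 to 6.63 in KPC. The labels used here give no sex, and sex or loss of the Y chromosome cannot be told apart from genotype.

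Ddr2 and Itga11 were higher in KPCAf/f and the other 8 receptor genes did not pass the test. The promoter windows of these 2 genes are shown because both were measurable in every KPCAf/f line and under 10 normalized counts in every KPC line. Each window is RefSeq's 300 bases (250 before and 50 from the start site) on the gene's own strand in GRCm38.p6, and capitals mark the motifs found in it.
Ddr2 (chr1:170088895-170089194, minus strand): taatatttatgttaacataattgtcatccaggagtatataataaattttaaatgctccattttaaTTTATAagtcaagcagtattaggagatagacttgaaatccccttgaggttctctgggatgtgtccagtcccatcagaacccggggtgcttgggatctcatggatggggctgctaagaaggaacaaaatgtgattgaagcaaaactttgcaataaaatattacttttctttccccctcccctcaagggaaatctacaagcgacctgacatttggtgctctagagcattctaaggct
Itga11 (chr9:62677605-62677904, plus strand): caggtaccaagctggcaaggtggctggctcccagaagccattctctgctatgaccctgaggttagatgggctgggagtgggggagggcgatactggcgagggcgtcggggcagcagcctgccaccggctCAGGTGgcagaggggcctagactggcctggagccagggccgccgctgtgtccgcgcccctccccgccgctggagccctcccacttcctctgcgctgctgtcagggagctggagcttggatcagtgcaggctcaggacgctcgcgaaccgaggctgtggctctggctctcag
The capitals in Ddr2 are TATAAA read on the opposite strand, at -185 from the start site, and those in Itga11 are the E-box CAGGTG at -121. These motifs occur on either strand in 13.6% and 20.2% of all 32851 RefSeq mouse windows of this length. AP-1 (TGANTCA, in 7.8% of windows), TEAD (GGAATG, 14.7%), SP1 (GGGCGG, 35.7%) and CCAAT (37.4%) were searched on both strands too, with no match in either window. Each window held 1 match, so that no matches overlapped. The Ddr2 window held 2 CpG and 39.0% G + C, and the Itga11 window 16 CpG and 68.0% G + C, where the median window holds 7 CpG. RefSeq gives 1 start site for each gene, but the Ddr2 site lies 21818 bases inside the 5′ end that GENCODE gives the gene, and gene counts do not show which start was used.

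Ddr2, a receptor for fibrillar collagen on chromosome 1 (169972307 to 170110762, minus strand, GRCm38), was present in every KPCAf/f line and close to absent from the KPC lines. Normalized counts of Ddr2 were 7196 (A1693), 314 (A1809), 129 (A1925), 990.4 (A2441) and 915 (A3992) in KPCAf/f, against 4.73 (A1081), 2.65 (A1620), 3.91 (A1625), 0 (A2031) and 1.03 (A2032) in KPC. The KPC values come from 12 reads in all 5 libraries, and the lowest KPCAf/f line, A1925, lay far above the highest KPC line. The KPCAf/f lines themselves spread over a 55.8-fold range, with A1693 highest by 7.27 times over the next line. Means were 1909 ± 2979 normalized counts in KPCAf/f and 2.47 ± 1.96 in KPC (n = 5 each), and the KPCAf/f mean was 587 ± 429.8 without A1693 (n = 4). The difference passed the test (log2 fold change 8.04, SE 0.96, 95% interval 5.94 to 10.15, limma adjusted p = 0.0013). Over all 13089 genes tested, 1.36% were called higher in KPCAf/f. The genotypes did not overlap for 4.53%, with KPCAf/f the higher in 2.84% and the lower in 1.69%. Ddr2 was under 10 normalized counts in every KPC line and could enter the test only because each KPCAf/f line reached 10, so it had to differ to be tested at all. It kept its call with edgeR (adjusted p = 0.00718) and lost it with limma-voom (adjusted p = 0.128). Without A1693 the log2 fold change was 7.24 (limma adjusted p = 0.000953).

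Ddr1, the discoidin receptor of epithelia, did not differ past the threshold between the genotypes. Normalized counts of Ddr1 were 1341 (A1693), 3428 (A1809), 1559 (A1925), 2783 (A2441) and 1578 (A3992) in KPCAf/f, against 3639 (A1081), 2198 (A1620), 1773 (A1625), 2429.5 (A2031) and 2122 (A2032) in KPC. The ranges overlapped, although 3 KPCAf/f lines (A1693, A1925 and A3992) lay below every KPC line. Means were 2138 ± 917 normalized counts in KPCAf/f and 2432 ± 715 in KPC (n = 5 each), and the difference did not pass (log2 fold change -0.24, SE 0.30, 95% interval -0.90 to 0.41, limma adjusted p = 0.719).

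The balance between the discoidin receptors differed between the genotypes. On the log2((Ddr1 + 1)/(Ddr2 + 1)) scale the ratio was -2.42 (A1693), 3.44 (A1809), 3.58 (A1925), 1.49 (A2441) and 0.79 (A3992) in the KPCAf/f lines, against 9.31 (A1081), 9.23 (A1620), 8.50 (A1625), 11.25 (A2031) and 10.03 (A2032) in the KPC lines. A1693 was the one line with more Ddr2 than Ddr1, and the genotypes did not overlap. In plain ratios, Ddr1 over Ddr2 was 0.186 in A1693 and between 1.73 (A3992) and 12.1 (A1925) elsewhere in KPCAf/f. In KPC it was at least 453, the value of A1625, with the Ddr2 of A1620, A2031 and A2032 set to a floor of 3 reads per library. The mean log2 ratio was 1.38 ± 2.45 in KPCAf/f and 9.66 ± 1.04 in KPC (n = 5 each), a difference of -8.29. No test is given, because the pair was chosen with the levels of Ddr2 known. Per kilobase of the longest transcript, Ddr2 made up 70.8% of the summed Ddr1 and Ddr2 level in A1693 and 3.60% to 20.7% elsewhere in KPCAf/f, against at most 0.0995% in the KPC lines.

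**Figure D1:**
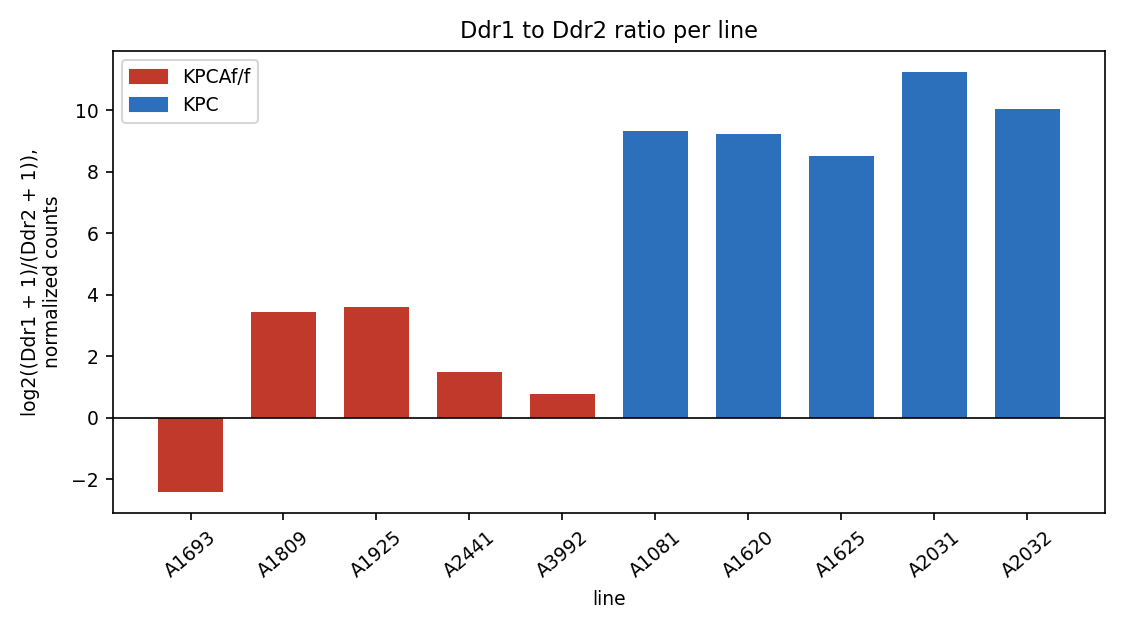
Ratio of Ddr1 to Ddr2 in each of the 10 lines, as log2((Ddr1 + 1)/(Ddr2 + 1)) of normalized counts, 1 bar per line with KPCAf/f in red and KPC in blue. KPCAf/f bars run from -2.42 to 3.58, all below the KPC bars, which run from 8.50 to 11.25.

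Itga11 encodes the collagen-binding alpha chain best known from fibroblasts (chromosome 9, 62677826 to 62783982, plus strand, GRCm38), and it too was found above 10 normalized counts in KPCAf/f lines alone. Normalized counts of Itga11 were 86.4 (A1693), 129 (A1809), 27.8 (A1925), 39.3 (A2441) and 22.9 (A3992) in KPCAf/f, against 8.52 (A1081), 0 (A1620), 0 (A1625), 1.12 (A2031) and 0 (A2032) in KPC. All KPCAf/f lines lay above all KPC lines, although at low levels. The gene had 348 reads over the 5 KPCAf/f libraries and 10 over the 5 KPC libraries, 9 of them in A1081. Means were 61.2 ± 45.6 normalized counts in KPCAf/f and 1.93 ± 3.72 in KPC (n = 5 each; 0.279 ± 0.559 in KPC without A1081). The difference passed the limma test (log2 fold change 4.78, SE 0.76, 95% interval 3.10 to 6.46, limma adjusted p = 0.0086). Like Ddr2, it was tested only through the KPCAf/f lines. With edgeR it missed the threshold (adjusted p = 0.0612), and it kept its call with limma-voom (adjusted p = 0.0246). The lines with the most Itga11 were A1809 and A1693, whereas Ddr2 was low in A1809, so the order of the KPCAf/f lines was not the same for both genes. Without both A1620 and A1693 the limma adjusted p of Itga11 was 0.0499.

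Itga1 and Itga2, the other collagen-binding alpha chains, spread more widely among lines of 1 genotype (log2 SD) than the genotype means lay apart (log2 fold change). Itga2 is the collagen receptor chain typical of epithelia and platelets, and Itga1 is common on smooth muscle and other mesenchymal cells. Normalized counts of Itga2 were 16.2 (A1693), 2524 (A1809), 1608 (A1925), 324 (A2441) and 4003 (A3992) in KPCAf/f, against 2089 (A1081), 59.6 (A1620), 3054 (A1625), 5036 (A2031) and 2377 (A2032) in KPC. A1693 was lowest of the KPCAf/f lines and A1620 lowest of the KPC lines. Normalized counts of Itga1 were 13.5 (A1693), 205 (A1809), 768 (A1925), 55.1 (A2441) and 1949.8 (A3992) in KPCAf/f, against 65.3 (A1081), 107 (A1620), 804 (A1625), 1348 (A2031) and 2449.6 (A2032) in KPC. The genotypes overlapped over most of their ranges for both genes. Neither gene passed the test (Itga2: log2 fold change -1.13, SE 1.56, 95% interval -4.57 to 2.30, limma adjusted p = 0.752; Itga1: log2 fold change -1.25, SE 1.40, 95% interval -4.33 to 1.83, limma adjusted p = 0.695), and these wide intervals do not show that the genotypes are alike. Without A1693 the log2 fold change of Itga2 was 0.16, of the other sign (limma adjusted p = 0.964), and without A1620 it was -2.26 (adjusted p = 0.47). For Itga1 it was -2.09 without A3992 and -0.32 without A1693, again with no call. The SD of Itga2 on the log2 scale was 3.20 among KPCAf/f lines and 2.56 among KPC lines, a spread reached by 1.87% and 1.43% of all tested genes. For Itga1 the SDs were 2.84 and 2.29, reached by 3.05% and 2.35%.

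Per kilobase of transcript, Itga2 led the collagen-binding alpha chains in 4 of 5 KPCAf/f lines and in 4 of 5 KPC lines. In KPCAf/f line A1693 Itga11 led instead, with 83.2% of the summed level of Itga1, Itga2 and Itga11, although that sum was small. It came to 0.547% of the Itgb1 level in A1693 and to 1.37% to 40.9% in the remaining KPCAf/f lines. In KPC line A1620 Itga1 led, with 53.8%, and the sum there was 0.736% of Itgb1, where it was 7.63% to 33.7% in the remaining KPC lines. The Itga2 and Itga1 transcripts are 7108 and 10967 bases long, and the part of the A1620 length trend in these shares was not tested. Itga1 and Itga2 are neighbours on chromosome 13, at 114953096 to 115101964 and 114833081 to 114932100 on the minus strand (GRCm38). Their levels did not follow each other in every line. KPC line A1081 had 2089 normalized counts of Itga2 beside 65.3 of Itga1, and KPC line A2032 had 2377 and 2449.6.

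**Figure D2:**
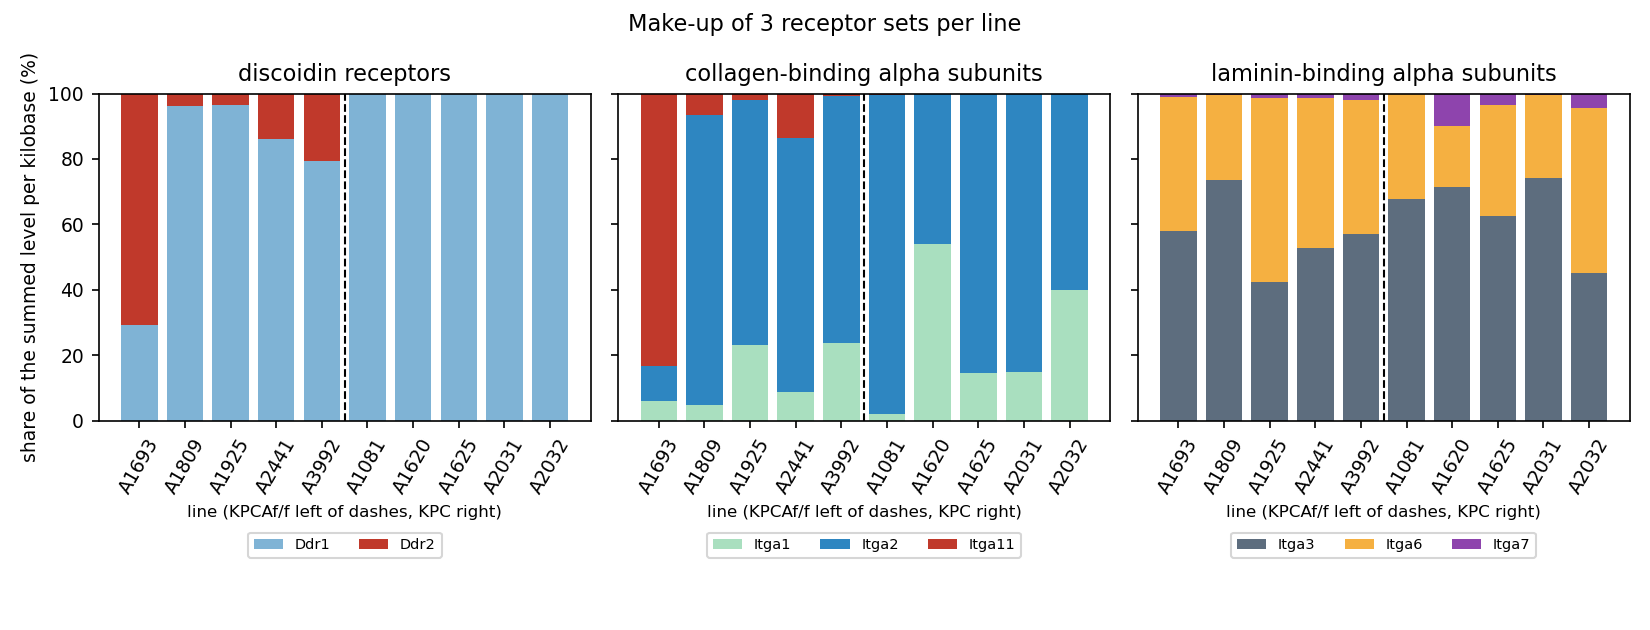
Share of each gene, in percent, in the summed level per kilobase of the discoidin receptors (left), the collagen-binding alpha chains (middle) and the laminin-binding alpha chains (right), 1 stacked bar per line, with the KPCAf/f lines left of the dashes. Ddr2 and Itga11 take 70.8% and 83.2% in KPCAf/f line A1693, and at most 0.0995% and 0.569% in any KPC line.

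None of the laminin receptor chains passed the test. Itga3 and Itga6 encode the main laminin-binding alpha chains of epithelia and were the most abundant alpha chains here. Normalized counts of Itga3 were 3802 (A1693), 13745 (A1809), 6704 (A1925), 6277 (A2441) and 10775 (A3992) in KPCAf/f, against 13846 (A1081), 11578 (A1620), 18506 (A1625), 32664 (A2031) and 8566 (A2032) in KPC. KPC lines A2031, A1625 and A1081 lay above every KPCAf/f line, 3 KPCAf/f lines (A1693, A2441 and A1925) lay below every KPC line, and the ranges overlapped. Means were 8261 ± 3957 normalized counts in KPCAf/f and 17032 ± 9462 in KPC (n = 5 each; 13124 ± 4189 in KPC without A2031). The interval lay below 0 but the p adjusted over all genes did not pass (log2 fold change -1.03, SE 0.42, 95% interval -1.94 to -0.11, limma adjusted p = 0.289). Normalized counts of Itga6 were 2377 (A1693), 4338 (A1809), 7881 (A1925), 4823 (A2441) and 6876 (A3992) in KPCAf/f, against 5802 (A1081), 2706 (A1620), 8828 (A1625), 9971 (A2031) and 8547 (A2032) in KPC. The lowest line of each genotype, A1693 and A1620, was the same as for Itga2, and the genotypes overlapped (log2 fold change -0.43, SE 0.41, 95% interval -1.33 to 0.47, limma adjusted p = 0.641).

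Itga7, the laminin receptor chain of skeletal and smooth muscle, varied most among the KPC lines. Normalized counts of Itga7 were 50.4 (A1693), 58.1 (A1809), 196 (A1925), 138 (A2441) and 330.4 (A3992) in KPCAf/f, against 13.3 (A1081), 1329.9 (A1620), 878 (A1625), 158 (A2031) and 692 (A2032) in KPC. KPC lines A1620, A1625 and A2032 lay above every KPCAf/f line, whereas A1081 lay below every KPCAf/f line. The difference did not pass (log2 fold change -1.21, SE 1.13, 95% interval -3.69 to 1.26, limma adjusted p = 0.629), and on the log2 scale the SD among KPC lines was 2.67, reached by 1.16% of tested genes, with a smaller SD among KPCAf/f lines, reached by 18.1%. Of 8 skeletal muscle markers, Myog was at 0 in every line and Myf5, Pax7, Ckm and Myh3 stayed under 10 normalized counts in every line. Their summed level was 9.90 to 1421 in KPCAf/f, against 2.06 to 119 in KPC, led by Acta1 in A1809 and by Myod1 in A1625. In smooth muscle and pericyte markers, Rgs5, Kcnj8 and Abcc9 of 9 stayed under 10 everywhere and the summed level was 534 to 3731 in KPCAf/f, against 7.82 to 100.3 in KPC. Acta2 led the highest of these sums, in A2441 (2750) and A1809 (2987). Myh11 and Des reached at most 10.6 and 14.6 in KPCAf/f, against 14.2 and 2.84 in KPC. Cspg4 had 79.3 to 260.5 in KPCAf/f, against 0 to 44.5 in KPC. Notch3 had 7.93 to 156 in KPCAf/f, against 0 to 2.06 in KPC, and Cnn1 8.10 to 574, against 0 to 20.8. The Itga7 log2 fold change was -2.29 without A1081 and -0.65 without A1620, with no call in either case. The line with the most Itga7 in each genotype (A3992 in KPCAf/f, A1620 in KPC) was not the line with the highest sum of either muscle list, and the part of other cell types in these values was not tested.

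Itgb4 pairs with the Itga6 product alone and anchors epithelial cells to laminin through hemidesmosomes. Normalized counts of Itgb4 were 45.0 (A1693), 2072 (A1809), 1889 (A1925), 913 (A2441) and 1498 (A3992) in KPCAf/f, against 1955 (A1081), 616 (A1620), 1312 (A1625), 2883 (A2031) and 1691 (A2032) in KPC. A1693 stood by itself at the bottom and the other 4 KPCAf/f lines lay within the KPC range. Means were 1283 ± 823 normalized counts in KPCAf/f and 1691 ± 835 in KPC (n = 5 each; 1593 ± 513 in KPCAf/f without A1693), and the difference did not pass (log2 fold change -0.99, SE 0.94, 95% interval -3.06 to 1.07, limma adjusted p = 0.636). Without A1693 the log2 fold change was 0.016. Per kilobase, Itgb4 came to 1.31% of Itga6 in A1693, with 13.1% to 33.2% elsewhere in KPCAf/f, against 10.3% to 23.4% in the KPC lines. In A1693, Itga6 was 2377 normalized counts, which was also the lowest of the 10 lines. The 10 pancreatic epithelial markers, among them Cdh1, Epcam, Krt8, Krt19 and Pdx1, summed to 6877 normalized counts in A1693, with 31591 to 115375 elsewhere in KPCAf/f, against 129192 to 272632 in the KPC lines. By genotype, Krt18 and Muc1 did not overlap (at most 36624 and 4706 in KPCAf/f, against at least 41140 and 5706 in KPC). Over all tested genes, 1.69% did not overlap with KPCAf/f the lower. The other markers of the list overlapped. Epcam and Cldn4 were highest in KPCAf/f line A1809 (6720 and 12503), against at most 754 and 122 in KPC. In A1693, Sox9 of the same list had its highest value of the 10 lines (945, the next being 816 in KPC line A2031). Krt18 had its lowest there (2808). None of these 10 was at 0 in every line, and their part in the Itgb4 and Itga2 values was not tested.

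Itgb1, the beta chain shared by all the alpha chains here, was the most even member among the KPC lines. Normalized counts of Itgb1 were 14592 (A1693), 17606 (A1809), 13543 (A1925), 16256 (A2441) and 6954 (A3992) in KPCAf/f, against 15082 (A1081), 9422 (A1620), 10793 (A1625), 9404 (A2031) and 10222 (A2032) in KPC. KPCAf/f lines A1809 and A2441 lay above every KPC line and A3992 lay below every KPC line. Means were 13790.1 ± 4125 normalized counts in KPCAf/f and 10985 ± 2364 in KPC (n = 5 each), and the difference did not pass (log2 fold change 0.28, SE 0.27, 95% interval -0.31 to 0.88, limma adjusted p = 0.637). The SD on the log2 scale was 0.53 among KPCAf/f lines and 0.28 among KPC lines, against medians of 0.44 and 0.57 over all tested genes. Per kilobase, the 3 laminin-binding alpha chains together came to 35.2% (A1693) to 214% (A3992) of Itgb1 in the KPCAf/f lines, against 106% (A1081) to 368% (A2031) in the KPC lines. The KPCAf/f line with the highest share, A3992, was also the line with the least Itgb1.

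Ordered by median normalized count per kilobase of the longest transcript, the KPCAf/f lines had Itgb1 (3825), Itga3 (1379), Itga6 (1119), Ddr1 (407), Itgb4 (241), Itga2 (226), Ddr2 (106), Itga7 (34.4), Itga1 (18.7) and Itga11 (7.92). The KPC lines had Itga3 (2848), Itgb1 (2679), Itga6 (1983), Ddr1 (567), Itga2 (334), Itgb4 (272), Itga7 (172), Itga1 (73.3), Ddr2 (0.308) and Itga11 (0). The chains Itgb1, Itga3 and Itga6 took the top places in both genotypes, with Ddr1 next, and Itga11 came last in both. Most neighbours in these orders overlapped between lines, the exceptions being Ddr1 over Itgb4 in KPCAf/f, and Itgb1 over Itga6 and Itga1 over Ddr2 in KPC. The place of Ddr2 was the seventh in KPCAf/f and the ninth in KPC.

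**Figure D3:**
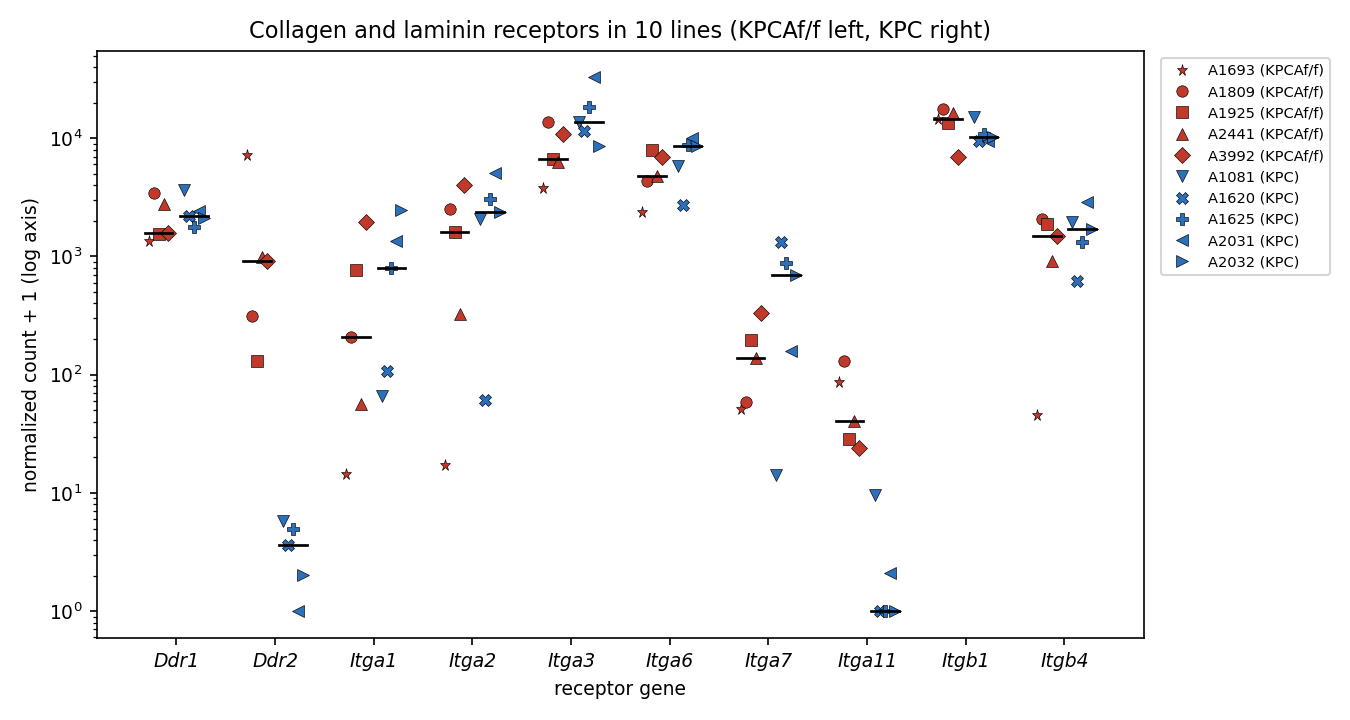
Normalized count + 1 (log axis) of each receptor gene in every line, KPCAf/f lines in red to the left and KPC lines in blue to the right, 1 symbol per line with the median as a black bar. Red and blue symbols separate for Ddr2 (129 or more normalized counts in KPCAf/f, 4.73 or less in KPC) and Itga11 (22.9 or more in KPCAf/f, 8.52 or less in KPC) and mix for the other 8 genes.

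Of the 10 receptor genes, 2 were called higher and 0 lower by limma, where 1.36% of all tested genes were called higher, 0.39% lower and 1.75% in either direction. At an unadjusted p under 0.05 there were 2 members higher and 1 lower (Itga3), where 8.39% and 6.26% of all tested genes, 14.6% in all, passed that limit. In the lower direction, edgeR, DESeq2 and limma-voom each called 0 members, beside 0.206%, 1.6% and 0.222% of all tested genes. In the higher direction edgeR called 1 member (Ddr2), DESeq2 2 and limma-voom 1 (Itga11), beside 1.11%, 3.98% and 0.581% of all tested genes. The median log2 fold change over the 10 was -0.71, against -0.01 over all tested genes. Reads of some members could be shared with overlapping genes, since the strand setting of the counting is not given in the sources used here. Ddr2 shares 90 exon bases with 3110045C21Rik on the opposite strand, which had 5 to 25 reads per library in the KPCAf/f lines and 8 to 36 in the KPC lines. Itga7 shares 9 exon bases with Mettl7b on the opposite strand. Mettl7b had 0 to 141 reads per library in KPCAf/f, against 18 to 803 in KPC. The KPC lines with the most Itga7, A1620, A1625 and A2032, had 803, 184 and 499 of these reads. The KPC lines with less Itga7, A1081 and A2031, had 18 and 31. KPCAf/f lines A1925 and A3992, with the most Itga7 of their genotype, had 141 and 137. KPCAf/f lines A1693, A1809 and A2441 had 0, 28 and 14. The part of Mettl7b in the Itga7 values was not tested. Ddr1 and Itgb4 share 216 and 537 exon bases with opposite-strand genes of 0 to 7 reads per library in KPCAf/f and 0 to 4 in KPC, and Itga1 shares 685 with Gm49395 on its own strand, which is not used here.

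**Figure D4:**
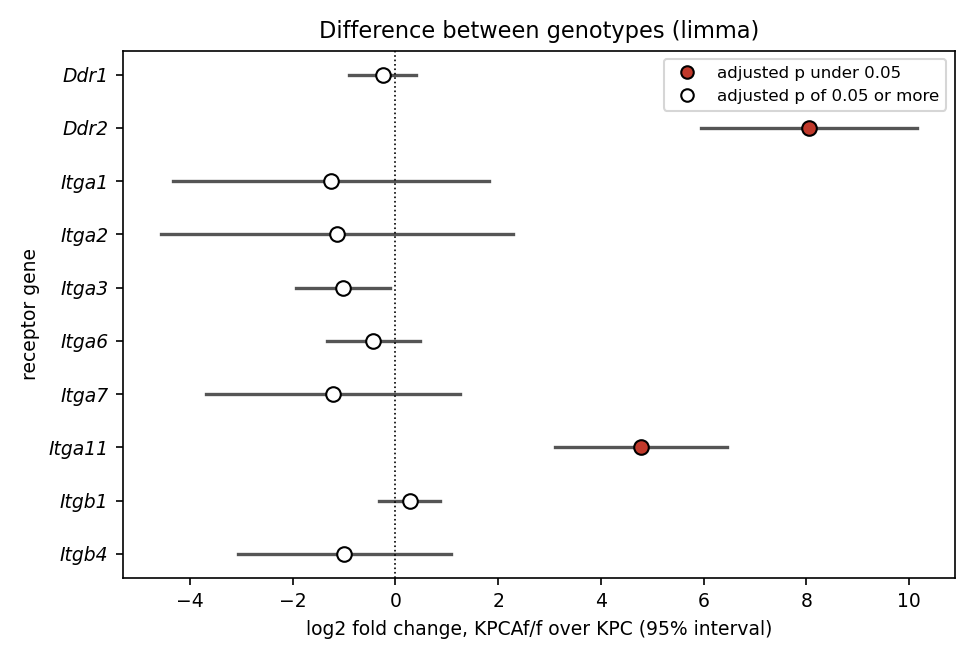
Log2 fold change of each receptor gene, KPCAf/f over KPC, with its 95% interval from limma (n = 5 lines per genotype). Ddr2 at 8.04 and Itga11 at 4.78 (filled) passed an adjusted p of 0.05, and the intervals of the other genes except Itga3 include 0.

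The fibrillar collagens, ligands of both discoidin receptors and of the collagen-binding integrins, included 6 genes that rose beside Ddr2 and Itga11. Of 11 listed genes 9 were tested, of which 6 rose, 0 fell and 3 did not pass by limma (median log2 fold change 6.78, against -0.01 over all tested genes). Limma called 1.36% of all tested genes higher and 0.39% lower. A single member, Col27a1 (named after its values were seen), was lower at an unadjusted p under 0.05, as were 6.26% of all tested genes. The tools edgeR, DESeq2 and limma-voom called 0 lower and 6, 5 and 3 higher. They called 0.206%, 1.6% and 0.222% of all tested genes lower, and 1.11%, 3.98% and 0.581% higher. Of the tested genes 4 passed the filter through the KPCAf/f lines alone, so that the count and the median partly reflect the filter. Col3a1, which forms type III collagen, had normalized counts of 1043 to 11775 in KPCAf/f, against 0 to 4.47 in KPC (log2 fold change 10.29 ± 0.71 SE, adjusted p = 3.95e-05 by limma). Col1a1, a chain of type I collagen, had 3259 to 17935 in KPCAf/f, against 29.4 to 141 in KPC (log2 fold change 7.15 ± 0.53 SE, adjusted p = 5.50e-05 by limma). Col5a2, a type V chain that joins type I fibrils, had 800.4 to 11109 in KPCAf/f, against 1.03 to 57.0 in KPC (log2 fold change 8.17 ± 1.02 SE, adjusted p = 0.00174 by limma), and Col1a2, the other chain of type I collagen, had 959 to 71336 in KPCAf/f, against 1.03 to 5.59 in KPC (log2 fold change 10.50 ± 0.98 SE, adjusted p = 0.000354 by limma). Of the KPCAf/f lines, A1693 had the most Col1a2, Col3a1 and Ddr2 but the least Col1a1 (3259), which was highest in A2441 (17935).

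The 10 listed fibroblast markers summed to 14717 to 88399.6 in KPCAf/f, against 62.9 to 173 in KPC, and Fap was the one of them under 10 normalized counts in every line. The list shares Col1a1, Col1a2 and Col3a1 with the collagen list, and Col1a2 alone made up 71336 of the 88399.6 in A1693. Outside the collagens, the growth factor receptor genes Pdgfra, at 198 to 3898 in KPCAf/f, against 2.65 to 54.8 in KPC, and Pdgfrb, at 257 to 2384 in KPCAf/f, against 0 to 1.32 in KPC, and the matrix gene Postn, at 6.75 to 1855 in KPCAf/f, against 0 to 1.32 in KPC, did not overlap between the genotypes. Dcn was at 2.46 to 182 in KPCAf/f, against 0 to 1.03 in KPC, and Lum at 0.843 to 126 in KPCAf/f and 0 in every KPC line. Dcn and Lum did not overlap either, but by few counts at their lowest. Over all tested genes, 2.84% did not overlap with KPCAf/f the higher. Thy1, at 2.53 to 97.8 in KPCAf/f, against 0 to 6.63 in KPC, overlapped. A1809, the line with the most Itga11, had the most Postn (1855) and the least Pdgfra of the KPCAf/f lines, with 2.46 each of Dcn and Lum. In cultured lines, more cells of a type and more RNA per cell cannot be told apart, and the part of fibroblasts in the Ddr2 and Itga11 values was not tested. Of 7 endothelial markers, Pecam1, Tie1, Emcn and Cldn5 were under 10 in every line, whereas Cdh5 reached 644 in KPCAf/f line A2441 and 415 in KPC line A1081, and Kdr 67.9 in KPCAf/f and 73.8 in KPC. Among 7 leukocyte markers, Adgre1, Cd3e and Tyrobp were under 10 in every line, whereas Cd68 was 36.1 to 293 in KPCAf/f, against 31.3 to 70.1 in KPC, and Csf1r 0 to 185 in KPCAf/f, against 0 to 59.6 in KPC. The endothelial sum was 8.10 to 668 in KPCAf/f, against 7.22 to 439 in KPC, and the leukocyte sum 66.1 to 293 in KPCAf/f, against 45.8 to 113 in KPC. Among 6 Schwann cell markers, Foxd3 was at 0 and Sox10 under 10 in every line, and the sum was 136 to 5071 in KPCAf/f, against 1666 to 3629 in KPC.

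Other receptors for these ligands gave 1 call. Of 6 listed, Lair1 and Gp6, collagen receptors of blood cells, were too low to test, 1 of the 4 tested rose and 0 fell by limma, and at an unadjusted p under 0.05 there were 2 higher and 0 lower (0 lower by edgeR, DESeq2 and limma-voom). Over all tested genes, limma called 1.36% higher and 0.39% lower, and the unadjusted limit passed 8.39% and 6.26%. Mrc2, an uptake receptor for collagen, had normalized counts of 279 to 6474 in KPCAf/f, against 0 to 4.73 in KPC (log2 fold change 7.97 ± 0.85 SE, adjusted p = 0.000791 by limma), and passed the filter through the KPCAf/f lines alone. Its highest line, A1693, was 15.2 times the next, and its call was not made with limma-voom. Itga10, the collagen-binding alpha chain of cartilage, had 17.6 to 161 in KPCAf/f, against 8.94 to 26.5 in KPC (log2 fold change 1.99 ± 0.61 SE, adjusted p = 0.153 by limma), and did not pass. Bcam and Dag1, laminin receptors outside the integrin family, had 15.3 to 2621 in KPCAf/f, against 672 to 3699.5 in KPC (log2 fold change -2.07 ± 1.13 SE, adjusted p = 0.419 by limma) and 5064 to 9451 in KPCAf/f, against 2251 to 7437 in KPC (log2 fold change 0.28 ± 0.33 SE, adjusted p = 0.71 by limma).

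Of 11 laminin chains 8 were tested, of which 1 rose, 0 fell and 7 did not pass by limma (median log2 fold change -0.17). Of all tested genes, 1.36% rose and 0.39% fell by limma. Lamb1, the beta chain of many laminins, had normalized counts of 3609 to 8122 in KPCAf/f, against 1187 to 4357 in KPC (log2 fold change 1.68 ± 0.37 SE, adjusted p = 0.0462 by limma), and its call was not made by edgeR or limma-voom. Lamb3, a chain of the epithelial laminin that the Itgb4 receptor binds in hemidesmosomes, had 18.9 to 1989.6 in KPCAf/f, against 339 to 6966 in KPC (log2 fold change -2.81 ± 1.138 SE, adjusted p = 0.289 by limma), without a call, and Lamb2 had 1766 to 7155 in KPCAf/f, against 1189 to 2317 in KPC (log2 fold change 1.003 ± 0.38 SE, adjusted p = 0.249 by limma). At an unadjusted p under 0.05 there were 3 higher and 2 lower chains, beside 8.39% and 6.26% of all tested genes, with 0 lower by edgeR, DESeq2 and limma-voom. Of 6 collagen IV chains, which both Ddr1 and the Itga1 receptor bind in basement membranes, 4 were tested and 0 passed in either direction by limma (2 higher and 0 lower at an unadjusted p under 0.05, beside 8.39% and 6.26% of all tested genes). DESeq2 called 2 higher, and edgeR and limma-voom 0, beside 3.98%, 1.11% and 0.581% of all tested genes. Col4a5 had 393 to 2424 in KPCAf/f, against 46.4 to 594 in KPC (log2 fold change 2.41 ± 0.66 SE, adjusted p = 0.109 by limma) and Col4a6 0.843 to 558 in KPCAf/f, against 0 to 18.6 in KPC (log2 fold change 3.57 ± 1.40 SE, adjusted p = 0.274 by limma). The common chains Col4a1 and Col4a2 had log2 fold changes of -0.36 and -0.35 (limma adjusted p = 0.696 and 0.695).

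Inside the cell, integrin tails bind talin and kindlin, which recruit further adhesion proteins. All 21 listed genes of this machinery were tested, and 0 passed in either direction by limma (4 higher and 1 lower at an unadjusted p under 0.05, beside 8.39% and 6.26% of all tested genes; edgeR and limma-voom called 0, and DESeq2 2 higher; median log2 fold change 0.19). Of all tested genes, DESeq2 called 3.98% higher. The smallest p belonged to Zyx (zyxin), at 1278 to 5652 in KPCAf/f, against 969 to 1762 in KPC (log2 fold change 1.24 ± 0.37 SE, adjusted p = 0.144 by limma), and Fermt2, the kindlin of mesenchymal cells, at 558 to 2994 in KPCAf/f, against 205 to 596 in KPC (log2 fold change 1.68 ± 0.50 SE, adjusted p = 0.144 by limma). Rsu1 and Pxn (paxillin) followed, with log2 fold changes of 0.88 and -0.47 (limma adjusted p = 0.162 and 0.236). Of 7 genes of the hemidesmosome, Col17a1, Krt5 and Krt14 were too low to test, and of the 4 tested 0 passed in either direction by limma, by edgeR, by DESeq2, by limma-voom or at an unadjusted p under 0.05. Lad1, for ladinin, had 1.8005 to 6457 in KPCAf/f, against 3849 to 9605 in KPC (log2 fold change -3.37 ± 1.71 SE, adjusted p = 0.391 by limma), with the lowest value in A1693, the line with the least Itgb4. Plec (plectin) and Dst, which tie the Itgb4 tail to keratin, had log2 fold changes of -0.11 and 0.53, and Cd151, a tetraspanin partner of laminin receptors, -0.42 (limma adjusted p = 0.892, 0.546 and 0.448).

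The genes whose pattern over the 10 lines was most like that of Ddr2, Ddr1 and Itgb4 were found among the tested protein-coding genes, after log2 values were centred on each gene's mean. Likeness was the root-mean-square difference over the 10 lines in log2 units. For Ddr2 they were Mrc2 (1.09), Ogn (1.44) and Serpinf1 (1.46), where the root-mean-square deviation of Ddr2 from its own mean was 4.30. Mrc2 is the collagen uptake receptor above, Ogn a small leucine-rich proteoglycan and Serpinf1 the secreted serpin PEDF. For Ddr1 they were Cbwd1 (0.21), Zfp598 (0.24) and Tbc1d22b (0.25), beside a deviation of 0.46 of Ddr1 itself. For Itgb4 they were Gpm6b (0.33), Arhgap27 (0.41) and Ablim1 (0.51), beside 1.63. Of these 3, Ablim1 encodes an actin-binding LIM protein and Arhgap27 a GTPase-activating protein. All of these genes were chosen for their likeness, so that it is a description of these libraries.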

How the data were processed

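The deposited table holds a signal for each gene and line, the read count that the authors divided by a DESeq2 size factor. The submitters' processing notes name STAR 2.5.2b, Subread 1.5.0p3, DESeq2 1.14.1, R 3.3.2, bcl2fastq 1.8.4 and Trimmomatic 0.36, and the builds GRCm38.p5 and mm9 without a role. Neither the counting annotation nor the strand setting is given in the sources used here. Columns were matched to lines by title. Whole reads (within 0.001) were recovered for 100% of values, and no pair of libraries differed only by sampling noise (chi-square per degree of freedom at least 60.6).

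Log2(normalized count + 1) values were compared with limma 3.58.1 (trend option, R 4.3.3), two-sided. P-values were adjusted by Benjamini and Hochberg over the 13089 genes that reached 10 normalized counts in at least 5 of 10 lines. All 10 members passed this filter. Alternatives were other pseudocounts, filters and scalings, array weights, a correction for transcript length, and lines left out, where the filter asked for as many lines as the smaller genotype had. The recovered reads were also tested with DESeq2 1.42.0, limma-voom and edgeR 4.0.16, which called 145 genes higher and 27 lower. The fits were tested on simulated data. Levels per kilobase use the longest GENCODE M21 transcript, and gene coordinates are from that annotation (GRCm38). RefSeq promoter windows (GRCm38.p6) were found for 7 of the 10 members. The members, gene lists and tests were chosen with earlier results of these data known. Besides the members, up to 4 tested genes of each context list were named by smallest limma p, with markers where they bear on a member and the 3 genes most like Ddr1, Ddr2 and Itgb4. A gene that this rule names is not reported here. Figures were drawn with matplotlib 3.10.9.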

Additional observations from a re-analysis of the deposited data

Results flagged for a closer look

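In 22 groups of 5 values (10 genes and the Ddr1 to Ddr2 ratio in each genotype), 3 held a line whose gap to the next was over 0.71 of the whole range on the log2 scale, a limit that chance passes in about 1 group in 20. Itga2 in KPC line A1620 was at 59.6 normalized counts, where the next lowest KPC line had 2089. Itgb1 in KPCAf/f line A3992 was at 6954, where the next lowest KPCAf/f line had 13543. Itgb4 in KPCAf/f line A1693 was at 45.0, where the next lowest KPCAf/f line had 913. A1620 is the line with the transcript length trend and A1693 the one with the lowest summed epithelial markers, although not of each marker, and their part in these values was not tested.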

How the results depend on the processing

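Each of 23 other settings was run for the 10 genes, except that Itga11 could not be tested under a mean of at least 100 normalized counts. The count of 2 receptor genes called higher was 1 under the mean of at least 100, 1 with edgeR (Ddr2), 1 with limma-voom (Itga11) and 1 without A1620, A1693 and A1809 (Ddr2, with Itga11 at a limma adjusted p of 0.063). It was 2 to 2 with any 1 line left out, with 0 to 0 called lower. Over all settings the log2 fold change ran from 6.74 to 9.57 for Ddr2 and from 3.11 to 5.46 for Itga11, with adjusted p up to 0.128 and 0.063. The difference in the Ddr1 to Ddr2 log2 ratio ran from -8.84 to -7.34 with 1 line left out and reached -6.99 with a pseudocount of 5. With 1 line left out, the log2 fold change ran from -2.26 to 0.16 for Itga2 and from -1.36 to 0.016 for Itgb4. Signs turned without A1693 for Itga2 (0.16) and Itgb4 (0.016), and without A1620, A1693 and A1809 for Itga7 (0.12), none of them called. The cause was not tested. Over all genes, calls ran from 76 (limma-voom) to 521 (DESeq2) higher, against 178, and from 22 (mean of at least 100) to 210 (DESeq2) lower, against 51. Itga11 rests on 348 reads in KPCAf/f and 10 in KPC, and Ddr2 on 12 in KPC, so counting error limits both fold changes. No paired analysis was possible because the labels give no replicate numbers that pair lines.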
